A study of Homo sapiens with 12 samples.

Results

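The 9 genes described here encode enzymes that make, recycle or break down deoxynucleoside triphosphates (dNTPs), the building blocks of DNA. They are RRM1, RRM2, TYMS, DTYMK, DUT, CAD, TK1, DCK and SAMHD1, found by gene symbol, and all 9 were present among the 43876 genes of the expression table. RNA was sequenced from MV4-11, a human acute myeloid leukemia line that carries the FLT3 internal tandem duplication (the sample labels give its genotype only as wild type), after 24 h of treatment. There were 4 conditions with 3 libraries each, numbered 1 to 3. DMSO was the vehicle control. Mito-Lipo cells received 20 nM mitoxantrone, a topoisomerase II poison, which the study describes as the liposomal form and the sample labels as mitoxantrone. Gilteritinib cells received 25 nM of this FLT3 inhibitor. Com cells received 20 nM of each drug, so the gilteritinib dose was lower there than in the cells given gilteritinib alone. The sources used here do not say whether the libraries of a condition came from separate cultures, so the p-values measure only the spread between these libraries.

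Ribonucleotide reductase turns ribonucleoside diphosphates into their deoxy forms, the rate-limiting step of dNTP synthesis. RRM1 is its large subunit and RRM2 its small subunit, made mainly in S phase, while RRM2B is a small subunit under p53 control. DUT splits dUTP to dUMP and so keeps uracil out of DNA, TYMS methylates dUMP to dTMP, and DTYMK adds the next phosphate. CAD starts pyrimidine synthesis. TK1 and DCK rescue thymidine and deoxycytidine, and DCK also activates cytarabine, a mainstay of leukemia therapy. SAMHD1 works in the opposite direction, cutting dNTPs back to nucleosides, and is abundant in myeloid cells.

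Sequence upstream of the start site is shown for RRM1, DTYMK and DUT, which had the lowest unadjusted p-values of the 9 genes in Mito-Lipo against DMSO, and for RRM2 and TK1, well-known S phase genes. Each run is the 250 bases before a RefSeq start on GRCh38.p14, read 5′ to 3′ on the strand of the gene. RRM1 is at chr11:4094435-4094684 (plus strand), DTYMK at chr2:241686816-241687065 (minus strand), DUT at chr15:48331947-48332196 (plus strand), RRM2 at chr2:10122489-10122738 (plus strand) and TK1 at chr17:78187053-78187302 (minus strand). RefSeq listed 1 start for RRM1 and DTYMK, 2 for RRM2 and TK1 and 4 for DUT, and the most downstream one was taken for display. Capitals mark exact matches on either strand to 4 motifs of cell cycle promoters, namely the E2F letters TTTCCCGC, TTTCGCGC, TTTGCCGC or TTTGGCGC, the CCAAT box (CCAAT), the cell cycle homology region (TTTGAA) and the GC box (GGGCGG).

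RRM1: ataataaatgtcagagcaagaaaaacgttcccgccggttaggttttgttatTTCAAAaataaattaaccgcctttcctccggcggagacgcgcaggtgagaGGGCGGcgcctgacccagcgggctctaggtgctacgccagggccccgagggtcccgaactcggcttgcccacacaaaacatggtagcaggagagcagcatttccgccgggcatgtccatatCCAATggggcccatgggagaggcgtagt
DTYMK: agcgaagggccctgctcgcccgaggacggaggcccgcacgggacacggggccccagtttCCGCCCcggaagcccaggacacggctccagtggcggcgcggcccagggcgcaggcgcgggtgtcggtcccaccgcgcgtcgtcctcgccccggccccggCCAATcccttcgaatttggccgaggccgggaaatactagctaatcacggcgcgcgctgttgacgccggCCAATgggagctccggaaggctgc
DUT: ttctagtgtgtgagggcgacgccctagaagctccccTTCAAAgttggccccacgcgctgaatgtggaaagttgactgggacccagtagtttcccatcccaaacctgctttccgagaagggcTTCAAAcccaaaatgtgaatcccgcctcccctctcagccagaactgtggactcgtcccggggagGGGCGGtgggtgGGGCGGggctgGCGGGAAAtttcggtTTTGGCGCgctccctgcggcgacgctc
RRM2: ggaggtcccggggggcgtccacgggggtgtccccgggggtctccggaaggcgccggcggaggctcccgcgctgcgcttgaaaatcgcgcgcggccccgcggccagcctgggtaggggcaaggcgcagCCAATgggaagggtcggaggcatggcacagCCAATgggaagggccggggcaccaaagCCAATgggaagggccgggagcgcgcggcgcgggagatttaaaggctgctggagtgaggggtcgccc
TK1: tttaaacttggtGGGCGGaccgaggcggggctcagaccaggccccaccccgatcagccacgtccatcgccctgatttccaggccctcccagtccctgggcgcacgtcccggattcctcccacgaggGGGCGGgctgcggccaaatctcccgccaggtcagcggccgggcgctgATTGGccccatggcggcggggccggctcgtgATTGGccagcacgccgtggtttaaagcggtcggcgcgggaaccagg

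RRM2 held 3 CCAAT boxes and no other searched motif in this window, and its 3 copies lay within 123 bases of the start. DTYMK and TK1 each held 2 CCAAT boxes. DUT held 2 E2F matches, one on each strand, within 42 bases of its start, and no CCAAT box. Over every listed start, a CCAAT box was present in 6 of the 9 genes (RRM1, RRM2, DTYMK, CAD, TK1 and SAMHD1) and in 37.0% of 27305 genes with a listed start. An E2F match was present in 2 of 9 (TYMS and DUT) and in 3.4% of all. The cell cycle homology region was present in 2 of 9 (RRM1 and DUT) against 16.1%, and the GC box in 7 of 9 against 46.2%. These matches describe letters in a short window and say nothing of binding.

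The deposited values are FPKM, fragments scaled to exon length and to library depth, so levels can be compared between genes per length. From the steps between low values, the libraries held about 31.7e6 to 41.3e6 fragments, and the 9 genes held about 2089 to 48108 fragments in a library, which gives a counting error of 0.46% to 2.19%. These fragment numbers are approximate because exon lengths came from GENCODE v29. Myeloid markers were present in every library, with FLT3 at 132 to 171 FPKM and LYZ at 490.4 to 1333 FPKM, except CD68, which stayed under 0.2 FPKM. Of 11 markers of lymphoid, erythroid, epithelial and stromal cells, 9 stayed under 1 FPKM in every library, and HBB lay between 0 and 2.85 FPKM. The summed level of these 11 was 4.25 to 4.92 FPKM in Mito-Lipo, 2.78 to 3.88 in DMSO, 2.66 to 3.91 in Gilteritinib and 2.56 to 3.29 in Com, and that of the 9 myeloid markers was 866 to 1296, 869 to 1017, 875 to 1523 and 892 to 1715 FPKM. CSF1R, a receptor of monocytes and macrophages named after its values were seen, was at 18.3, 40.6 and 41.1 FPKM in Mito-Lipo libraries 1, 2 and 3 and at 11.4, 22.4 and 20.9 FPKM in DMSO, 13.5, 22.8 and 22.6 in Gilteritinib and 17.7, 24.6 and 24.8 in Com. Mean SPI1 (78.2 FPKM in Mito-Lipo, 90.2 in DMSO) and CEBPA (57.9, 62.1) were lower in Mito-Lipo than in DMSO. So were mean KIT (11.2, 12.5) and MPO (2.03, 2.19). Mean CD33 (25.6, 22.5), LYZ (651, 561) and CD68 (0.164, 0.0479) were higher, and mean FLT3 (157.5, 157.2) was level. Mean LYZ was higher still in Gilteritinib (758) and Com (827). Mean SPI1 was lower still in Gilteritinib (68.8) and Com (73.4), and mean CEBPA in Gilteritinib (56.5). The SPI1 libraries of Mito-Lipo (59.8 to 107 FPKM) overlapped those of DMSO (77.0 to 108 FPKM). The part of these markers in the differences of Mito-Lipo given here was not tested.

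The libraries numbered 1 stood apart from those numbered 2 and 3 in every condition. Deviations from the condition means correlated between libraries 1 of different conditions (Pearson's r from 0.491 to 0.657). Between library 1 and libraries 2 or 3 the correlations were negative (-0.562 to -0.205). Deviations sum to 0 within a condition, so these negative values partly follow from the positive ones and are not separate evidence. Same-numbered libraries correlated in all 18 pairs (0.165 to 0.657), but libraries 2 and 3 of different conditions did too (0.112 to 0.434). The leading principal component held 41.9% of variance, and its values by library are not given here. CDKN1A, the p53 target p21, was at 48.4, 19.3 and 19.1 FPKM in DMSO libraries 1, 2 and 3 and at 113, 45.4 and 45.1 FPKM in Mito-Lipo. In Gilteritinib it was at 20.2, 20.3 and 20.8 FPKM and in Com at 92.1, 30.1 and 30.7 FPKM, so library 1 was the highest in every condition but Gilteritinib. What sets library 1 apart was not tested. Results are therefore given with a replicate block, where each number has its own baseline, and from the 8 libraries numbered 2 and 3 (n = 2 in each condition), beside the fit of all 12 libraries without a block.

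Per length, RRM2 was the most abundant of the 9 in DMSO cells at 147 ± 33.1 FPKM (SD, n = 3 here and below), followed by SAMHD1 at 90.7 ± 16.3, RRM1 at 82.5 ± 0.732, DTYMK at 79.4 ± 2.88 and DUT at 69.3 ± 2.12 FPKM. TK1 was at 53.0 ± 7.62, TYMS at 50.8 ± 4.76, CAD at 40.3 ± 3.89 and DCK at 25.6 ± 1.10 FPKM. For 8 of the 9 genes the Mito-Lipo mean was the lowest of the 4 conditions, and SAMHD1 was the exception, with its lowest mean in DMSO. The share of all genes with their lowest mean in Mito-Lipo is not given here. In the limma fit of all 12 libraries without a block, none of the 9 passed an adjusted p of 0.05 in any of the 7 comparisons, and every difference between conditions is given on the log2(FPKM + 1) scale. Among all 18574 genes tested the share past that threshold was 0% in 6 comparisons and 0.00538% in Com against DMSO. The same 9 genes tested by voom on approximate fragment numbers, an alternative chosen after seeing the data, also gave 0 calls without the block. With the block voom called 1 of the 9 in Mito-Lipo against DMSO (RRM1), where it called 1.59% of all genes, 3 in Gilteritinib against Mito-Lipo (RRM1, TK1 and DTYMK), where it called 3.95%, and 0 in the other 5 comparisons. Counts at an unadjusted p are given with each comparison. These are bulk samples, in which fewer cells in S phase and less RNA per cell cannot be told apart. The plot of levels by library shows the values behind these comparisons.

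**Figure D1:**
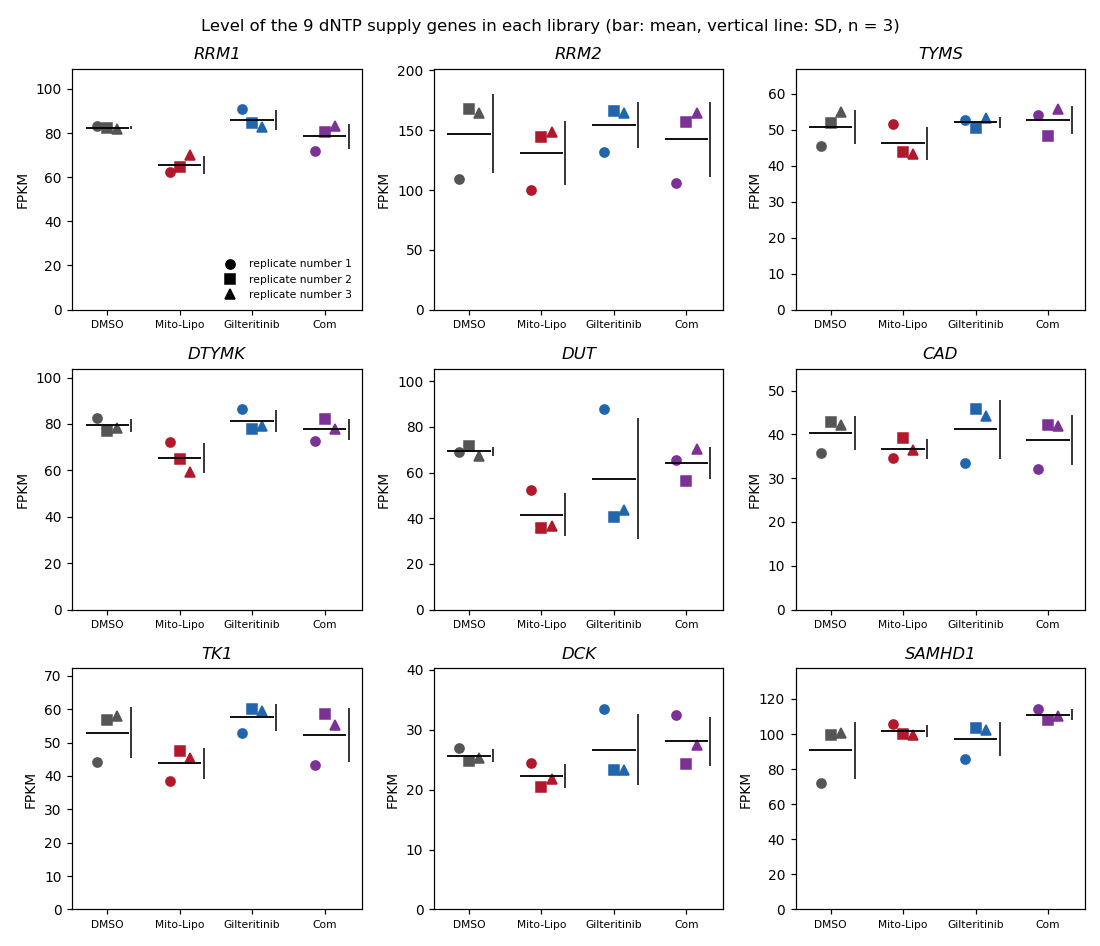
FPKM (linear axis from 0) of each of the 9 genes in the 12 libraries, by condition on the horizontal axis. Circles, squares and triangles are the libraries numbered 1, 2 and 3, horizontal bars are means and vertical lines are ± 1 SD (n = 3). RRM1, DTYMK, DUT and DCK have all 3 Mito-Lipo libraries below all 3 DMSO libraries, and RRM2, CAD and TK1 have library 1 lowest in every condition.

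RRM1 (chr11:4094707-4138876 on GRCh38, plus strand, by GENCODE v29 as for the other genes) was at 83.3, 82.2 and 81.9 FPKM in DMSO libraries 1, 2 and 3 and at 62.2, 64.6 and 70.2 FPKM in Mito-Lipo. It was at 91.0, 84.4 and 82.5 FPKM in Gilteritinib and at 72.0, 80.3 and 83.2 FPKM in Com. The Mito-Lipo libraries were the 3 lowest of the 12, while DMSO, Gilteritinib and Com overlapped. The Mito-Lipo mean was 0.796 of the DMSO mean, a difference of -0.33 (SE 0.073, 95% interval -0.49 to -0.17, unadjusted p = 0.001, adjusted p = 0.397) by limma. With the replicate block the same difference had unadjusted p = 0.00105, adjusted p = 0.118. Libraries 2 and 3 alone gave -0.28 (95% interval -0.39 to -0.17, adjusted p = 0.0215). Com against Mito-Lipo was 0.25 (SE 0.073, 95% interval 0.092 to 0.41, unadjusted p = 0.0054, adjusted p = 0.84), and Gilteritinib against Mito-Lipo was 0.38 (SE 0.073, 95% interval 0.22 to 0.55, unadjusted p = 0.000287, adjusted p = 0.235). In this fit without a block RRM1 had the lowest unadjusted p of the 9 in all 3 comparisons, while with the block TK1 had it in Com and in Gilteritinib against Mito-Lipo.

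RRM2 (chr2:10120698-10131419, plus strand) was at 109, 168 and 164 FPKM in DMSO and at 99.8, 145 and 148 FPKM in Mito-Lipo. In Gilteritinib it was at 132, 166 and 165 FPKM and in Com at 106, 157 and 164 FPKM. Library 1 was the lowest of its condition everywhere, by 0.32 to 0.60 on the log2 scale against the mean of libraries 2 and 3, and this offset was larger than any difference between conditions. The Mito-Lipo difference from DMSO was -0.16 (SE 0.22, 95% interval -0.65 to 0.33, unadjusted p = 0.477, adjusted p = 0.938). Compared number by number, Mito-Lipo was lower in 3 of 3 pairs (-0.13, -0.22 and -0.15), and the block left an unadjusted p of 0.0349 and an adjusted p of 0.277. In libraries 2 and 3 alone it was -0.18 (95% interval -0.27 to -0.10, adjusted p = 0.0389). Of the exons of RRM2, 20.2% by length are shared with AC007240.1, a gene model on the same strand. It has no value in the expression table, so its part in the RRM2 level could not be checked.

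The RRM2 level was 1.31, 2.04 and 2.01 times the RRM1 level in DMSO libraries 1, 2 and 3 and 1.60, 2.24 and 2.11 times in Mito-Lipo. The ratio followed the library number more than the condition, being lowest in library 1 in all 4 conditions. RRM2B, the alternative small subunit, was at 37.3, 26.7 and 26.3 FPKM in DMSO, 41.9, 25.5 and 26.4 in Mito-Lipo, 43.8, 24.8 and 24.2 in Gilteritinib and 52.6, 25.6 and 29.1 in Com. Unlike RRM2, it was highest in library 1 of each condition. Mito-Lipo against DMSO was 0.037 (SE 0.31, 95% interval -0.64 to 0.72, unadjusted p = 0.906, adjusted p = 0.993) for RRM2B, an interval wide on both sides of 0.

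In the thymidylate branch, DUT (chr15:48331011-48343373, plus strand) had the largest difference of the 9 genes. It was at 69.1, 71.4 and 67.2 FPKM in DMSO and at 52.3, 35.6 and 36.6 FPKM in Mito-Lipo, with no overlap. In Com it was at 65.6, 56.4 and 70.5 FPKM, above every Mito-Lipo library. In Gilteritinib it was at 88.0, 40.6 and 43.4 FPKM, so library 1 was the highest of all 12 while libraries 2 and 3 lay below every DMSO and Com library. The Mito-Lipo mean was 0.599 of the DMSO mean, a difference of -0.75 (SE 0.25, 95% interval -1.30 to -0.19, unadjusted p = 0.013, adjusted p = 0.507). With the block it had unadjusted p = 0.00492, adjusted p = 0.16, and in libraries 2 and 3 alone it was -0.92 (95% interval -1.17 to -0.68, adjusted p = 0.00662). Com against Mito-Lipo was 0.63 (SE 0.25, 95% interval 0.078 to 1.19, unadjusted p = 0.029, adjusted p = 0.891), and 0.79 (95% interval 0.54 to 1.03, adjusted p = 0.0112) in libraries 2 and 3. DUT-AS1, on the opposite strand, shares 14.5% of the DUT exon length and was at 0.961 to 1.65 FPKM. GENCODE lists processed pseudogenes of DUT, RRM2 and TYMS, with which reads may be shared.

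DTYMK (chr2:241675742-241686991, minus strand) was at 82.7, 77.2 and 78.5 FPKM in DMSO and at 72.2, 65.0 and 59.3 FPKM in Mito-Lipo. It was at 86.6, 78.0 and 79.2 FPKM in Gilteritinib and 72.8, 82.1 and 78.0 FPKM in Com. The 3 Mito-Lipo libraries were the 3 lowest of the 12. Library 1 of Mito-Lipo and library 1 of Com differed by less than their counting errors (1.18% and 1.26%). Mito-Lipo against DMSO was -0.28 (SE 0.082, 95% interval -0.46 to -0.10, unadjusted p = 0.00613, adjusted p = 0.492), and -0.32 (95% interval -0.44 to -0.20, adjusted p = 0.0198) in libraries 2 and 3. Com against Mito-Lipo was 0.24 (SE 0.082, 95% interval 0.064 to 0.43, unadjusted p = 0.0126, adjusted p = 0.888), with pair differences of 0.013, 0.33 and 0.39 for numbers 1, 2 and 3, so the difference lay in libraries 2 and 3.

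TYMS (chr18:657604-673578, plus strand) was at 45.6, 52.0 and 54.9 FPKM in DMSO and at 51.6, 43.9 and 43.3 FPKM in Mito-Lipo, and these groups overlapped. It was at 52.8, 50.4 and 53.2 FPKM in Gilteritinib and 54.1, 48.3 and 55.9 FPKM in Com. The pair differences from DMSO were 0.18, -0.24 and -0.33, so library 1 went the other way from libraries 2 and 3. The difference of -0.13 (SE 0.092, 95% interval -0.34 to 0.072, unadjusted p = 0.18, adjusted p = 0.811) did not pass, nor did the -0.29 (95% interval -0.46 to -0.11, adjusted p = 0.0768) of libraries 2 and 3. ENOSF1, on the opposite strand, shares 39.1% of the TYMS exon length and was at 21.5 to 30.7 FPKM. The library kit does not mark strand, so reads of the shared part cannot be told apart.

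CAD (chr2:27217390-27243943, plus strand), at the head of pyrimidine synthesis, was at 35.8, 42.9 and 42.1 FPKM in DMSO, 34.7, 39.2 and 36.3 in Mito-Lipo, 33.4, 45.9 and 44.1 in Gilteritinib and 32.1, 42.2 and 41.9 in Com. All 4 groups overlapped and library 1 was lowest in each. Mito-Lipo against DMSO was -0.13 (SE 0.14, 95% interval -0.43 to 0.18, unadjusted p = 0.376, adjusted p = 0.91).

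Of the salvage kinases, TK1 (chr17:78174075-78187233, minus strand) was at 44.2, 56.7 and 58.1 FPKM in DMSO and 38.6, 47.4 and 45.4 FPKM in Mito-Lipo. It was at 52.9, 60.2 and 59.5 FPKM in Gilteritinib and 43.3, 58.7 and 55.3 FPKM in Com. Library 1 was again the lowest of each condition, and the Mito-Lipo and DMSO groups overlapped only through DMSO library 1. The difference of -0.26 (SE 0.14, 95% interval -0.57 to 0.036, unadjusted p = 0.0787, adjusted p = 0.69) had unadjusted p = 0.0012, adjusted p = 0.118 with the block and was -0.30 (95% interval -0.40 to -0.20, adjusted p = 0.0122) in libraries 2 and 3. Gilteritinib lay above Mito-Lipo in all libraries, at 0.39 (SE 0.14, 95% interval 0.088 to 0.69, unadjusted p = 0.016, adjusted p = 0.398).

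DCK (chr4:70992538-71030914, plus strand), the least abundant of the 9, was at 26.9, 24.8 and 25.2 FPKM in DMSO and 24.4, 20.4 and 21.8 FPKM in Mito-Lipo, with no overlap. In Gilteritinib it was at 33.5, 23.2 and 23.2 FPKM and in Com at 32.4, 24.2 and 27.5 FPKM. Unlike TK1, it was highest in library 1 of every condition. Mito-Lipo against DMSO was -0.20 (SE 0.14, 95% interval -0.52 to 0.12, unadjusted p = 0.191, adjusted p = 0.815), with unadjusted p = 0.0393, adjusted p = 0.289 under the block. Com against Mito-Lipo was 0.32 (SE 0.14, 95% interval -0.0026 to 0.64, unadjusted p = 0.0516, adjusted p = 0.891). MOB1B shares 6.17% of the DCK exon length on the same strand and was at 6.70 to 11.1 FPKM.

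SAMHD1 (chr20:36889773-36951901, minus strand), the dNTP hydrolase, was the 1 gene whose lowest mean was not in Mito-Lipo. It was at 71.9, 99.7 and 101 FPKM in DMSO, 106, 100.1 and 99.2 in Mito-Lipo, 86.0, 103 and 102 in Gilteritinib and 114, 108 and 110.1 in Com. The 3 Com libraries were the 3 highest of the 12, and DMSO library 1 was the lowest. Com against DMSO was 0.30 (SE 0.12, 95% interval 0.036 to 0.57, unadjusted p = 0.0298, adjusted p = 1), with unadjusted p = 0.0234, adjusted p = 1 under the block. That size rested on DMSO library 1, since the pair differences were 0.66, 0.12 and 0.13 and libraries 2 and 3 alone gave 0.12 (95% interval 0.058 to 0.19, adjusted p = 0.343). Without DMSO library 1 the difference was 0.15. Mito-Lipo against DMSO was 0.18 (SE 0.12, 95% interval -0.088 to 0.45, unadjusted p = 0.166, adjusted p = 0.804), and libraries 2 and 3 gave -0.0060 (95% interval -0.072 to 0.060, adjusted p = 0.925), a change of sign. TLDC2 overlaps 10.3% of the SAMHD1 exon length on the opposite strand and was at 1.12 to 2.35 FPKM.

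Set against RRM1, which makes dNTP precursors, the SAMHD1 level was 0.863, 1.21 and 1.23 times the RRM1 level in DMSO libraries 1, 2 and 3, 1.70, 1.55 and 1.41 times in Mito-Lipo, 0.945, 1.22 and 1.24 times in Gilteritinib and 1.59, 1.35 and 1.32 times in Com. Every Mito-Lipo and Com library lay above every DMSO and Gilteritinib library. This ratio was looked at after the values of both genes were seen and is given as a description with no test.

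**Figure D2:**
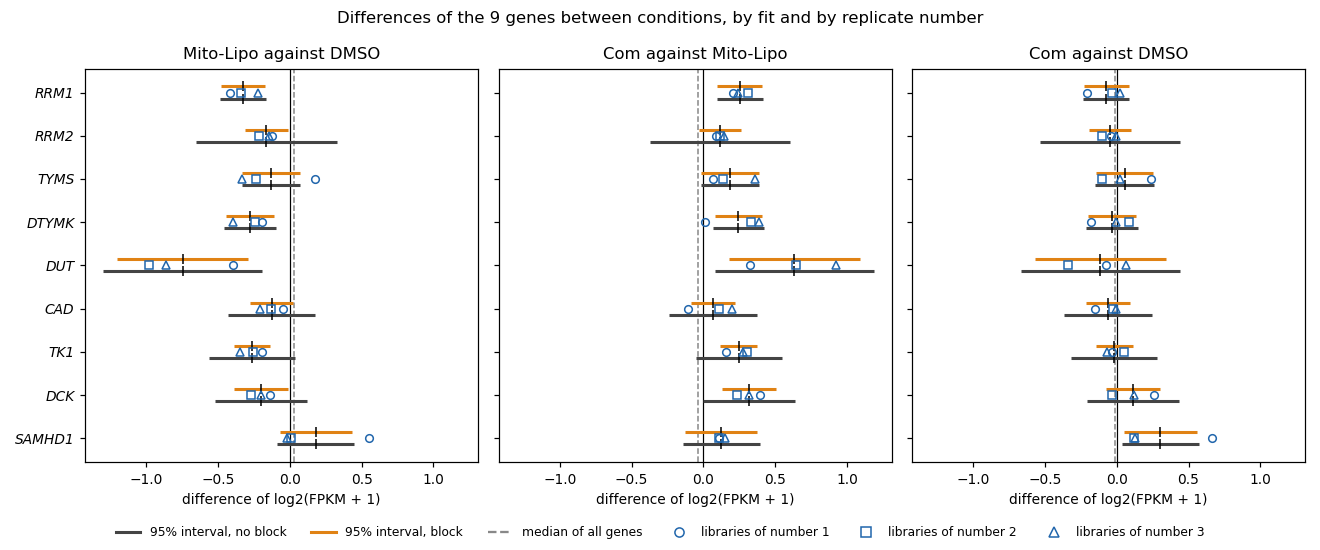
Differences of log2(FPKM + 1) for the 9 genes in 3 comparisons. Grey and orange lines are 95% intervals of the limma fits without and with the replicate block, open symbols are differences between same-numbered libraries, and the dashed line is the median of all 18574 genes. In Mito-Lipo against DMSO 8 of 9 estimates lie below 0, in Com against Mito-Lipo all 9 lie above 0, and in Com against DMSO they lie between -0.11 and 0.30.

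Read across the genes, Mito-Lipo against DMSO gave a median difference of -0.20 for the 9 genes, with 8 below 0, beside a median of 0.030 for all genes tested, of which 7979 of 18574 lay below 0. At an unadjusted p under 0.05, 3 of 9 were lower (RRM1, DTYMK and DUT), where 2.94% of all genes were, and none was higher, where 4.95% were. The groups did not overlap for 4 of 9 (RRM1, DTYMK, DUT and DCK, all lower), against 5.9% of all genes. With the replicate block 6 of 9 were lower at that unadjusted p (also RRM2, TK1 and DCK), against 6.46%, and none had an adjusted p under 0.05. In libraries 2 and 3 alone, 5 of 9 were lower at an adjusted p under 0.05 (RRM1, RRM2, DTYMK, DUT and TK1), against 3.32% of all genes. The 9 genes were measured in the same libraries and are not independent of each other.

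Com against Mito-Lipo compares cells with and without gilteritinib in the presence of mitoxantrone, and shares the Mito-Lipo libraries with the comparison above. All 9 differences were above 0, from 0.066 (CAD) to 0.63 (DUT). Their median was 0.24 beside -0.036 for all genes, of which 7518 of 18574 lay above 0. At an unadjusted p under 0.05, 3 of 9 were higher (RRM1, DTYMK and DUT), where 1.41% of all genes were. The groups did not overlap for 4 of 9 (these and SAMHD1), against 3.22%. For DTYMK the nearest libraries, at 72.2 FPKM in Mito-Lipo and 72.8 in Com, differed by less than their counting errors. With the block 5 of 9 were higher at that unadjusted p (RRM1, DTYMK, DUT, TK1 and DCK), against 3.6%. In libraries 2 and 3 alone 5 of 9 had an adjusted p under 0.05 (RRM1, DTYMK, DUT, TK1 and SAMHD1), against 2.62%. For TYMS the difference was 0.19 (unadjusted p = 0.0691) and for RRM2 0.12 (unadjusted p = 0.611).

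Gilteritinib against Mito-Lipo sets the single drugs side by side. Here 8 of 9 differences were above 0, with SAMHD1 at -0.071 (above 0 under median-ratio scaling). The median was 0.25 beside -0.061 for all genes, of which 6704 of 18574 lay above 0. At an unadjusted p under 0.05, 3 of 9 were higher (RRM1, DTYMK and TK1), against 2.96% of all genes, and the same 3 genes had groups that did not overlap, against 5.25%. With the block 5 of 9 were higher (RRM1, RRM2, DTYMK, TK1 and DCK), against 5.45%. In libraries 2 and 3 alone 5 of 9 had an adjusted p under 0.05 (RRM1, RRM2, DTYMK, CAD and TK1), against 2.65%. A term for library 1 against libraries 2 and 3 in the fit of all 12 libraries gave 2 such calls (RRM1 and TK1), against 0.393%.

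Gilteritinib against DMSO gave no member with an unadjusted p under 0.05, where 1.86% of all genes had one. The differences ran from -0.36 (DUT, 95% interval -0.91 to 0.20) to 0.12 (TK1, -0.18 to 0.42), with a median of 0.041. The DUT value joins a library 1 above DMSO and libraries 2 and 3 below it, with pair differences of 0.34, -0.80 and -0.62, and it was -0.71 without Gilteritinib library 1. In libraries 2 and 3 alone DUT was -0.71 (95% interval -0.96 to -0.46, adjusted p = 0.0547), with an unadjusted p of 0.000362 by limma. It was the 1 gene of 9 lower at an unadjusted p under 0.05 in that fit, against 7.32% of all genes. With a term for library 1 TK1 was higher at an unadjusted p of 0.0434 by limma, 1 of 9 against 1.36%. Com against DMSO left 8 genes between -0.11 and 0.11, and SAMHD1 at 0.30. SAMHD1 was the 1 gene of 9 that was higher at an unadjusted p under 0.05, where 0.829% of all genes were, and the 1 whose groups did not overlap, against 2.57%. The intervals of RRM1 (-0.23 to 0.088) and DTYMK (-0.21 to 0.15) were the narrowest, and that of DUT (-0.67 to 0.44) the widest, and differences from DMSO within these bounds could not be told from 0.

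Com against Gilteritinib gave differences from -0.14 (TK1) to 0.24 (DUT), with no member at an unadjusted p under 0.05 and 1.63% of all genes there. With the block TK1 was lower at an unadjusted p of 0.0338, 1 of 9 against 1.91% of all genes. Its pair differences were -0.28, -0.036 and -0.11, and libraries 2 and 3 alone gave -0.071 (95% interval -0.17 to 0.028). In those libraries DUT (0.58, adjusted p = 0.23) and SAMHD1 (0.087, adjusted p = 0.637) were higher at an unadjusted p under 0.05 by limma. That was 2 of 9 against 3.85% of all genes. The 3 Com libraries of SAMHD1 lay above the 3 Gilteritinib libraries, 1 of 9 against 3.87%. The interaction asks whether the mitoxantrone difference was the same with gilteritinib present (Com against Gilteritinib) as without it (Mito-Lipo against DMSO). It was above 0 for all 9 genes (SAMHD1 lay below 0 under quantile normalization). The median was 0.15 beside -0.011 for all genes, of which 8799 of 18574 lay above 0. DUT alone had an unadjusted p under 0.05, at 0.99 (SE 0.36, 95% interval 0.21 to 1.78, unadjusted p = 0.018, adjusted p = 1), 1 of 9 against 1.43% of all genes. With the block DUT and DCK passed that threshold, 2 of 9 against 3.56%, at unadjusted p-values of 0.00701 and 0.0402 by limma. In libraries 2 and 3 alone the DUT interaction was 1.50 (95% interval 1.15 to 1.84, adjusted p = 0.00575), 1 of 9 against 1.7%. DUT was -0.75 between Mito-Lipo and DMSO and 0.24 between Com and Gilteritinib, the latter from pair differences of -0.42, 0.46 and 0.69. The gilteritinib doses of these comparisons differed, 20 nM in Com and 25 nM alone.

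**Figure D3:**
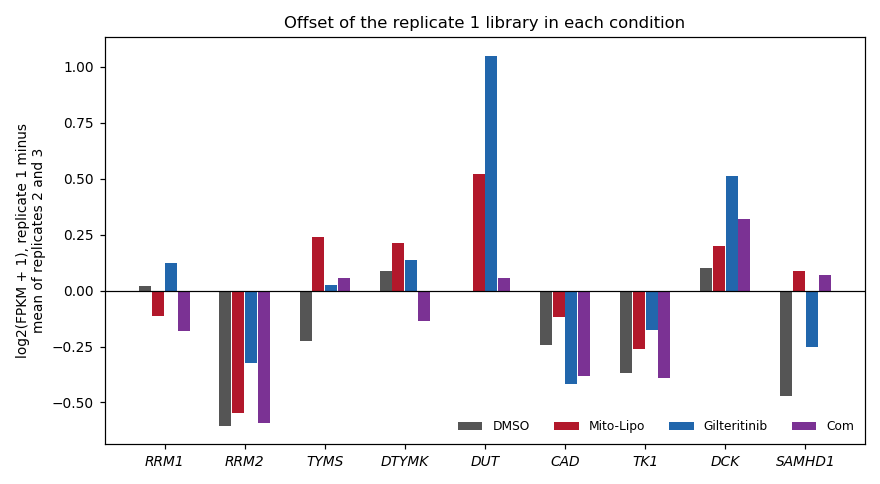
Offset of library 1 from the mean of libraries 2 and 3 in the same condition, as a difference of log2(FPKM + 1), for each gene and condition (1 value each, no error bar). RRM2, CAD and TK1 lie below 0 in all 4 conditions, DCK lies above 0 in all 4, and DUT reaches 1.05 in Gilteritinib and 0.52 in Mito-Lipo but is near 0 in DMSO and Com.

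The offset of library 1 was not the same for all 9 genes. RRM2 (-0.60 to -0.32), CAD (-0.42 to -0.12) and TK1 (-0.39 to -0.17) were below the mean of libraries 2 and 3 in all 4 conditions. DCK was above it in all 4 (0.10 to 0.51). RRM1 ranged from -0.18 to 0.12. DUT was close to it in DMSO (-0.0036) and Com (0.057) but above it by 0.52 in Mito-Lipo and 1.05 in Gilteritinib, so for DUT the block, which gives a number the same baseline in every condition, takes up only part of the offset.

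A wider list of 64 other genes of nucleotide metabolism, of which 61 passed the filter on low values, was centred nearer to all genes. In Mito-Lipo against DMSO its median was -0.067, with 40 of 61 below 0, and 3 were lower at an unadjusted p under 0.05 and 0 higher, against the 2.94% and 4.95% of all genes above. With the block 13 of 61 were lower at that unadjusted p, against 6.46% of all genes, and in libraries 2 and 3 alone 7 of 61 were lower at an adjusted p under 0.05, against 3.32%. Higher in those 2 fits were 2 of 61 (9.45% of all genes) and 4 of 61 (3.08%). The 3 genes lower without the block belong to purine synthesis. GART, which acts at several early steps, was at 50.9, 46.0 and 46.1 FPKM in DMSO and 40.6, 41.3 and 41.6 FPKM in Mito-Lipo (-0.20, unadjusted p = 0.0141, adjusted p = 0.507). ADSS2, on the way to AMP, was at 40.1, 37.1 and 36.1 and 33.8, 30.9 and 31.3 FPKM (-0.23, unadjusted p = 0.0201), and GMPS, which makes GMP, at 45.6, 42.9 and 42.4 and 40.8, 37.2 and 38.2 FPKM (-0.17, unadjusted p = 0.0336). In all 3 genes the Mito-Lipo libraries lay below the DMSO libraries.

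Of the 17 base synthesis genes of that list, 15 were below 0 in Mito-Lipo against DMSO, with a median of -0.14. The 19 genes of deoxynucleotide synthesis had 13 below 0 (median -0.032), the 14 salvage genes 6 (median 0.0078) and the 11 genes of breakdown and sanitation 6 (median -0.066). The 3 highest by p were CMPK2, a mitochondrial nucleotide kinase, at 0.22, TK2, the mitochondrial thymidine kinase, at 0.19, and UPP1, a uridine phosphorylase, at 0.55, with unadjusted p-values of 0.088, 0.114 and 0.137. UPP1 was at 0.618, 1.51 and 1.19 FPKM in DMSO, 0.606, 3.27 and 3.03 in Mito-Lipo and 0.572, 1.04 and 0.695 in Com, so Mito-Lipo libraries 2 and 3 were the highest of these and library 1 was not. In Com against Mito-Lipo 2 of 61 were higher (DERA and GMPS) and 1 lower (UPP1), against 1.41% and 4.12% of all genes. In Gilteritinib against Mito-Lipo 8 of 61 were higher and 1 lower (CMPK2), against 2.96% and 6.56%, and in libraries 2 and 3 alone 13 of 61 were higher at an adjusted p under 0.05, against 2.65%. The same count in Com against Mito-Lipo was 5 of 61, against 2.62%. DERA, which breaks down deoxyribose phosphate, is named here after its values were seen.

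**Figure D4:**
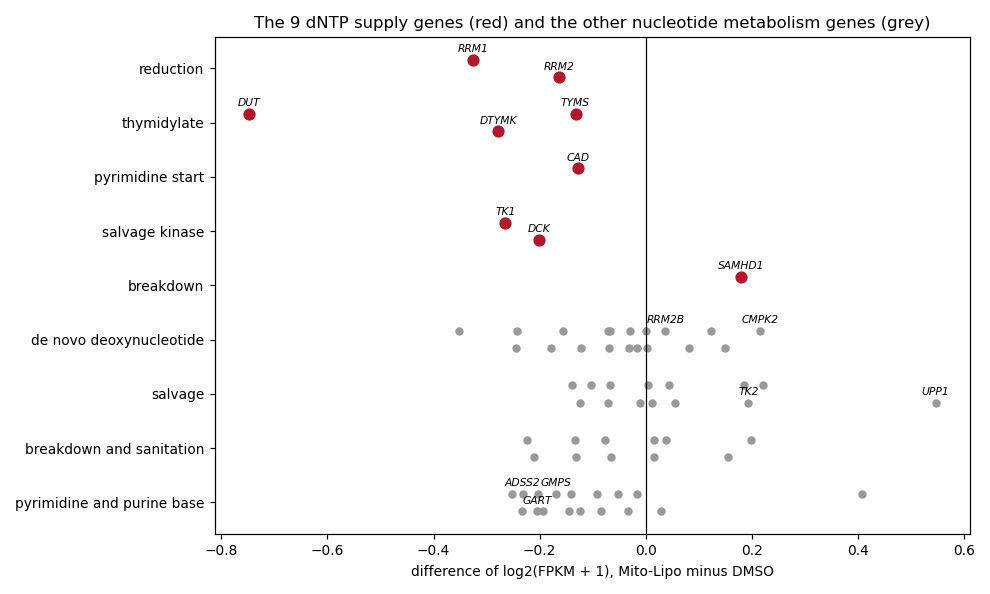
Difference of log2(FPKM + 1) between Mito-Lipo and DMSO for the 9 dNTP supply genes (red) and the 61 other nucleotide metabolism genes tested (grey), in rows by role. Among the 9 genes SAMHD1 alone lies above 0, while the grey genes spread on both sides, from -0.35 to 0.55, except in base synthesis, where 15 of 17 lie below 0.

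The genes whose levels followed RRM2 most closely over the 12 libraries, of 9319 genes with a mean of at least 5 FPKM, were CDCA4 (Pearson's r of 0.99), PHF19 (0.97), SMIM20 (0.97), PRPS2 (0.96) and YWHAH (0.96). Over the 8 libraries numbered 2 and 3 the same values were 0.91, 0.59, 0.72, 0.96 and 0.81. The genes closest to the mean profile of the 9, each scaled to the same spread, were FAM111A (0.96), RPA1 (0.95), PRMT6 (0.94), FBXO5 (0.92) and PRKAR2A (0.91), and over libraries 2 and 3 their values were 0.96, 0.94, 0.97, 0.96 and 0.97. These are descriptions of the genes that came first among many in the same libraries, with no test.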

How the data were processed

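RNA from MV4-11 cells was sequenced in 12 libraries, 3 in each of 4 conditions taken from the sample titles. The authors deposited FPKM per gene, fragments scaled to exon length in kilobases and to mapped library depth. The submitters' processing notes name Bowtie 0.12.9, Cufflinks 2.1.1, HTSeq and DESeq2, and the mouse build mm10, although the gene identifiers are human Ensembl identifiers. The role of each tool and the gene lengths used are not given in the sources used here. Libraries were made by Geo-seq amplification and a transposase kit that does not mark strand.

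Genes with at least 1 FPKM in at least 3 libraries (18574 of 43876, all 9 genes of interest among them) were tested on log2(FPKM + 1) with limma 3.58.1 in R 4.3.3, with a mean-variance trend, 1 fit of all 12 libraries and Benjamini-Hochberg adjustment over all genes tested. All p-values are two-sided and come from this moderated test, whose code was tested on simulated data. Fold changes on this scale understate the change of low genes. Replicate numbers are from the labels. Deviations of same-numbered libraries from their condition means correlated at 0.165 to 0.657 in 18 pairs, and at -0.562 to 0.434 in 36 pairs of other numbers. Every negative value involved a library 1, which partly follows from deviations that sum to 0 within a condition. Libraries 2 and 3 of different conditions correlated at 0.112 to 0.434, overlapping the 0.165 to 0.474 of same-numbered libraries 2 or 3. The numbers were taken to pair the libraries, which for numbers 2 and 3 is an assumption. Fits with a replicate block are given beside the others. What a number stands for is not given in the sources used here.

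Depth was estimated from the steps between low FPKM values at GENCODE v29 exon lengths. Between 78.2% and 79.9% of values came out whole within 0.1 fragment, where 20% would by chance, so fragment numbers are approximate, and counting error covers counting alone. Gene positions are from GENCODE v29 (GRCh38) and promoter windows from RefSeq (GRCh38.p14), matched by symbol.

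The 9 genes, the wider list, the marker lists and the tests were chosen with earlier results of these data known. Named genes were all 9, RRM2B, the 3 wider-list genes with the smallest unadjusted p in each direction in Mito-Lipo against DMSO, and the 5 genes with the highest Pearson's r to RRM2 and to the mean of the 9, with FLT3 and CDKN1A as checks and genes that overlap a member. Alternatives were a pseudocount of 0.1, no filter or a mean of at least 5 FPKM, median-ratio scaling, quantile normalization, no trend, the replicate block, the compared conditions alone, each library left out, replicates 2 and 3 alone and a term for replicate 1. Voom on recovered fragments, with and without the block, was chosen after seeing the data. Values of some genes of the wider and marker lists are not reported here.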

Additional observations from a re-analysis of the deposited data

How the results depend on the processing

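The number of the 9 genes with an adjusted p under 0.05 was 0 in all 7 comparisons, and stayed at 0 with the replicate block, with each library left out and under the other scalings, filters, pseudocount and trend settings. It was 5 in Mito-Lipo against DMSO, 5 in Com against Mito-Lipo, 5 in Gilteritinib against Mito-Lipo and 1 in the interaction with replicates 2 and 3 only. With a term for replicate 1 it was 2 in Gilteritinib against Mito-Lipo. By voom with the replicate block, chosen after seeing the data, it was 1 in Mito-Lipo against DMSO and 3 in Gilteritinib against Mito-Lipo, where voom called 1.59% and 3.95% of all genes. Counted by an unadjusted p under 0.05, it was 3 in each of the comparisons of Mito-Lipo with DMSO, Com and Gilteritinib, 1 between Com and DMSO, and 1 in the interaction. Single-gene differences were followed for all 9 genes in Mito-Lipo against DMSO and in the comparisons of Com with Mito-Lipo, Gilteritinib with Mito-Lipo and Com with DMSO, and for 2 or 3 genes in each of the others, 44 in all. Of their 807 alternative values, 762 kept their direction and side of the threshold, 22 passed it and 23 changed sign, 17 of these with a library left out. With replicates 2 and 3 only, the sign changed for SAMHD1 in Mito-Lipo against DMSO (-0.0060) and Gilteritinib against Mito-Lipo (0.043), and between Com and DMSO for TYMS (-0.039) and DTYMK (0.040). Outside those followed, it also changed between Gilteritinib and DMSO for RRM2 (-0.0076), TYMS (-0.043) and DCK (-0.10) and between Com and Gilteritinib for DTYMK (0.025). SAMHD1 also changed sign in Gilteritinib against Mito-Lipo under median-ratio scaling (0.029) and in the interaction under quantile normalization (-0.025). With a library left out, RRM2 ranged from -0.36 (without DMSO replicate 1) to 0.019 (without Mito-Lipo replicate 1) in Mito-Lipo against DMSO and from -0.067 (without Mito-Lipo replicate 1) to 0.31 (without Com replicate 1) in Com against Mito-Lipo. SAMHD1 ranged from -0.12 to 0.014 (without Gilteritinib replicate 1) in Gilteritinib against Mito-Lipo and from -0.070 to 0.17 in the interaction. In Com against DMSO, RRM2 ranged from -0.25 to 0.15, TYMS from -0.020 to 0.12, DTYMK from -0.074 to 0.011, CAD from -0.14 to 0.066 and TK1 from -0.14 to 0.11. The cause of these changes was not tested. The fits with a library left out had no replicate block. RRM2 in Mito-Lipo library 1 was at -0.55 against the mean of Mito-Lipo libraries 2 and 3. Its pair differences between Mito-Lipo and DMSO were below 0 for every number (-0.13, -0.22 and -0.15). With 3 libraries a condition, and 2 where library 1 was left out, the spread between libraries limits these values, since the counting error of the 9 genes was at most 2.19%.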
